A study of Mus musculus with 36 samples.

Results

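Macrophages take up, bind, store and export lipids with a small set of proteins, and 10 of their genes are described here: *Trem2*, *Apoe*, *Abca1*, *Abcg1*, *Cd36*, *Lpl*, *Fabp5*, *Plin2*, *Gpnmb* and *Lgals3*. They were chosen by name as lipid-handling macrophage genes, and all 10 were found among the 24781 genes of the deposited count table. Macrophages meet lipids as lipoproteins, as free fatty acids and as the membranes of dead cells that they engulf, and they must then store the lipid in droplets, burn it or pass it on to lipoproteins outside the cell. Macrophages loaded with lipid in tumours, fat tissue, vessel walls and the brain are known for high levels of several of these transcripts, with the lipid-sensing receptor TREM2 and apolipoprotein E as the best known.

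The libraries came from tumours of MC38, a mouse colon adenocarcinoma line grown in the skin, on day 7 after inoculation. Samples of 100 tumour-associated macrophages (TAMs, sorted as CD45+CD11b+F4/80high) and of 100 CD8 T cells (sorted as CD45+TCRbeta+CD8+) were used for digital RNA sequencing. This method primes at the poly(A) tail and counts barcoded molecules in place of their amplified copies. There were 36 libraries in 3 groups of 6 for each of 2 cell types, and the methods give 1 library per mouse. Whether a TAM and a CD8 library of the same number came from 1 tumour is not stated. The fits took all libraries as independent, apart from an alternative with the replicate number as a block. The comparisons ask how the transcripts of each cell type differ when B cells are missing, and when GABA, which B cells can release, is then supplied.

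WT mice were of the C57BL/6J or C57BL/6N strain, and the study's methods do not say which of them gave these libraries. *muMt*-/- mice (C57BL/6J) carry a disrupted *Ighm* and have no mature B cells, and *Ighm* was not analysed here. GABA-treated *muMt*-/- mice had a pellet under the skin that released GABA over 21 days and was implanted 1 day before the tumour cells. For WT and *muMt*-/- mice the labels give the treatment as none, while the methods describe placebo pellets for mice without GABA. Mice of the whole study were 2 to 5 months old and of both sexes, and the sexes behind these libraries are not stated. If the WT strain differed from that of the mutants, strain and genotype cannot be told apart.

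Depth differed between the groups. TAM libraries of WT mice had between 206394 and 304100 molecules, with a median of 242756. In *muMt*-/- mice the lowest TAM library had 100254 molecules, the median was 149960 and the highest 253608. TAM libraries of GABA-treated *muMt*-/- mice ran from 151856 to 262606, with 192775 as the median. In CD8 T cells the medians were 42065.5, 67121.5 and 80283 molecules in the same order of groups, and the shallowest library, from a WT mouse, had 22896. Levels are given below as normalized molecules, which are counts divided by DESeq2's size factor over the 18 libraries of a cell type. Since the libraries count 3′ ends by molecule, each gene is compared between libraries, and a gene called the most abundant of a list is so by its mean CPM.

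The sorted cell types were checked on marker lists. Summed levels are given as counts per 1000000 molecules of a library (CPM). A list of 12 macrophage markers had between 6980 and 12533 CPM in the 18 TAM libraries, and none of the 12 was at 0 in any TAM group. Its most abundant gene was *C1qb* in WT, *C1qa* in *muMt*-/- and *C1qc* in GABA-treated *muMt*-/- TAMs. A list of 8 T cell markers reached at most 38.3 CPM in a TAM library, and had medians of 3525, 2845 and 3028 in the CD8 groups. The labels hold on these lists, with a limit for the T cells: macrophage markers were found in 17 of 18 CD8 libraries, with medians of 165, 702 and 1067 CPM in WT, *muMt*-/- and GABA-treated *muMt*-/- mice.

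Some libraries stood apart. GABA-treated *muMt*-/- TAM replicate 1 had 2384 CPM for the 10 genes together, where the other TAM libraries had between 3338 and 5785. This gap was one of *Apoe* and *Lgals3*. Without these genes the library had 764 CPM, inside the range of the other TAM libraries (710 to 1144). Its macrophage markers (6980) were also the lowest of the TAM libraries. CD8 *muMt*-/- replicate 1 had the highest macrophage markers of the CD8 libraries (4329 CPM) and the lowest T cell markers (1212), with 1826 CPM for the 10 genes. CD8 GABA-treated *muMt*-/- replicate 1 came second on both lists, with 2653 CPM of macrophage markers and 1326 of T cell markers, and had 765 CPM for the 10 genes.

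**Figure D1:**
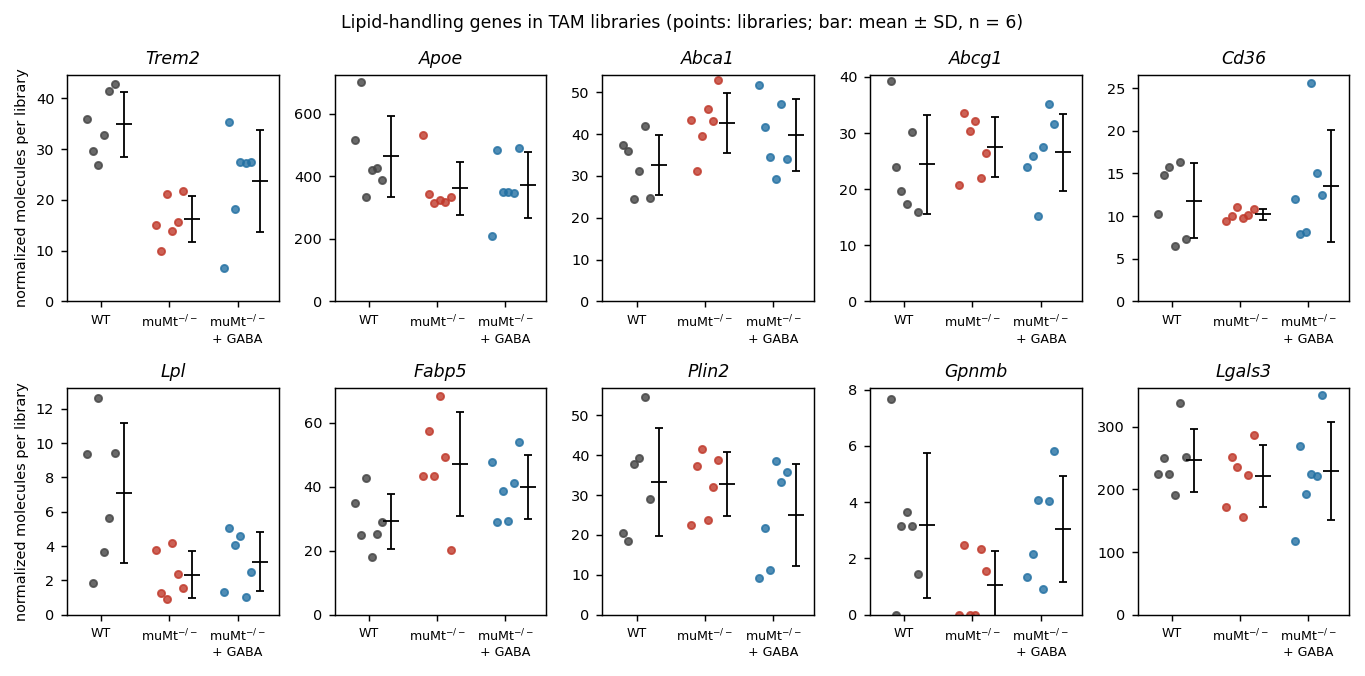
Normalized molecules of the 10 genes in the 18 TAM libraries, with 1 panel per gene and 1 point per library, and with the mean and SD of each group of 6 as a bar at its right. *Trem2* is the gene of the 10 whose *muMt*-/- libraries all lie below every WT library, as do those of 1.33% of all genes tested.

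TREM2 is a surface receptor that binds lipids, lipoproteins and debris of dead cells and signals through the adaptor DAP12. The gene *Trem2* lies on chromosome 17 of mm10 from 48346401 to 48352276. In WT TAMs the lowest library had 26.8 normalized molecules of *Trem2*, the median was 34.3 and the highest 42.9 (mean 34.9 ± 6.41, SD, n = 6). In *muMt*-/- TAMs these values were 9.95, 15.4 and 21.8 (mean 16.3 ± 4.51, SD, n = 6). All 6 *muMt*-/- libraries were below every WT library, so that these groups did not overlap. Of all 9469 genes tested, 1.33% had every *muMt*-/- library below every WT library, and 2.48% did not overlap in either direction. *Trem2* fell by 1.11 on the log2 scale in *muMt*-/- TAMs (standard error 0.24, 95% interval -1.59 to -0.63, adjusted p 0.00828 by edgeR's quasi-likelihood test with Benjamini-Hochberg adjustment over 9469 genes). The mean in *muMt*-/- mice was 0.467 times that in WT mice. In bulk libraries such as these, fewer cells of a type and less RNA of a gene per cell cannot be told apart.

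Each library was left out in turn, and *Trem2* kept its call in all 12 of these fits (adjusted p 0.00861 to 0.0328). It was lost when the log2 number of molecules per library entered the fit as a covariate, an alternative chosen after the data were seen, with a log2 fold change of -0.71 and an adjusted p of 0.426 (range over the alternatives 7.38e-05 to 0.426). Within groups, *Trem2* had a Pearson's r of 0.422 with the log2 number of molecules over the 18 TAM libraries, which share that number as the base of their scaling. The depth of *muMt*-/- TAM libraries was lower than that of WT libraries at the median, and the part of depth in the difference was not tested.

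In GABA-treated *muMt*-/- TAMs, *Trem2* ran from 6.64 over a median of 27.3 to 35.3 normalized molecules (mean 23.7 ± 9.96, SD, n = 6). Of these libraries 4 lay above every *muMt*-/- library without GABA and 1, the replicate 1 that stands apart, below every one, and the groups overlapped. The log2 fold change between GABA-treated and other *muMt*-/- TAMs was 0.61 (95% interval 0.10 to 1.11, adjusted p 0.502 by edgeR's quasi-likelihood test). Without replicate 1 it was 0.77, with an adjusted p of 0.100 (range over the alternatives 0.100 to 0.808), so that it did not pass with or without that library. Against WT, the log2 fold change in GABA-treated mice was -0.51 (standard error 0.22, adjusted p 0.640), with 5 of 6 libraries below the WT median, and -0.35 without replicate 1.

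Apolipoprotein E coats lipoproteins and carries cholesterol away from macrophages, and its gene *Apoe* lies on chromosome 7 from 19696244 to 19701310. *Apoe* had 335 normalized molecules in the lowest WT library, 424 at the median and 701 in the highest. In *muMt*-/- TAMs it had 316, 329 and 531, and in GABA-treated *muMt*-/- TAMs 208, 352 and 492. Of the *muMt*-/- libraries 4 lay below every WT library, and replicate 1 was the high one, at 531 where the next had 345. The log2 fold change between *muMt*-/- and WT was -0.40 (standard error 0.18, adjusted p 0.286 by edgeR), and -0.53 without that replicate (adjusted p 0.139, range over the alternatives 0.139 to 0.584). With GABA it was 0.09 against *muMt*-/- mice, and 0.21 without GABA-treated replicate 1.

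ABCA1 and ABCG1 are membrane pumps that pass cholesterol and phospholipid to apolipoproteins and to high-density lipoprotein, and both genes are targets of the sterol-sensing receptors LXR. *Abca1* (chromosome 4 from 53030789 to 53159988) had 24.5, 33.6 and 42.1 normalized molecules in the lowest, median and highest WT library. In *muMt*-/- TAMs it had 31.1, 43.2 and 52.8, and with GABA 29.3, 38.2 and 51.8. Here 4 of 6 *muMt*-/- libraries were above every WT library and the groups overlapped (log2 fold change 0.35, standard error 0.18, adjusted p 0.373 by edgeR). *Abcg1* (chromosome 17 from 31057694 to 31117984) had a median of 21.9 normalized molecules in WT (lowest 16.0, highest 39.2), 28.4 in *muMt*-/- (20.7 to 33.6) and 26.7 in GABA-treated *muMt*-/- TAMs (15.2 to 35.2). Its groups overlapped throughout, with a log2 fold change of 0.16 between *muMt*-/- and WT (adjusted p 0.819 by edgeR). The pair thus did not share the sign of *Apoe* in this comparison, and none of these genes passed the test.

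CD36 is a scavenger receptor that takes up oxidized lipoproteins and long-chain fatty acids. *Cd36* (chromosome 5 from 17781690 to 17888959) had 6.54, 12.5 and 16.3 normalized molecules in WT libraries. The *muMt*-/- libraries lay close together, from 9.42 over 10.1 to 11.1 (SD 0.642, against 4.38 in WT), and those with GABA ran from 7.93 over 12.2 to 25.6. The *muMt*-/- libraries thus lay inside the range of WT, and the difference in spread was not tested. The log2 fold change between *muMt*-/- and WT was -0.22 (adjusted p 0.805 by edgeR), and with GABA it was 0.41 against *muMt*-/- mice (adjusted p 0.758). With each library left out in turn, the former ran from -0.34 to -0.08 and the latter from 0.10 to 0.55.

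Lipoprotein lipase, which splits the triglyceride of lipoproteins outside the cell, is encoded by *Lpl* (chromosome 8 from 68880555 to 68906932). The gene had few molecules, 56 over the 6 WT libraries, 11 over those of *muMt*-/- and 21 over those of GABA-treated *muMt*-/- mice. The lowest, median and highest normalized values were 1.85, 7.51 and 12.6 in WT, 0.922, 1.95 and 4.18 in *muMt*-/- and 1.01, 3.28 and 5.05 in GABA-treated *muMt*-/- TAMs. WT was the spread-out group, with 4 libraries above every *muMt*-/- library and 2 inside the *muMt*-/- range. All 6 *muMt*-/- libraries were below the WT median, and the log2 fold change of -1.67 (standard error 0.47) missed the threshold with an adjusted p of 0.0507 by edgeR's quasi-likelihood test. It passed without WT replicate 2 (adjusted p 0.0228), without WT replicate 4 (0.0386), without the filter on low counts (0.0177) and in a fit to the 12 libraries of the comparison (0.0355), with a range over the alternatives of 0.0177 to 0.371. Against WT, *Lpl* stood at a log2 fold change of -1.10 in GABA-treated *muMt*-/- TAMs (adjusted p 0.527), with 6 of 6 libraries below the WT median.

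FABP5 binds fatty acids in the cytosol and carries them to enzymes and nuclear receptors. *Fabp5* (chromosome 3 from 10012585 to 10016610) had 18.2, 27.1 and 42.6 normalized molecules in the lowest, median and highest WT library. In *muMt*-/- TAMs the values were 20.2, 46.3 and 68.3, and in GABA-treated *muMt*-/- TAMs 28.8, 39.9 and 54.0. Of the *muMt*-/- libraries 5 were above every WT library, and replicate 6 was the low one. The log2 fold change of 0.68 (standard error 0.22) had an adjusted p of 0.0873 by edgeR, and of 0.0267 without *muMt*-/- replicate 6, with 0.0449 by DESeq2's Wald test, 0.0413 without the filter on low counts and 0.0494 with edgeR's own filter (range over the alternatives 0.0267 to 0.394). All 6 GABA-treated libraries were above the WT median too (log2 fold change against WT 0.45, standard error 0.21, adjusted p 0.699). Against *muMt*-/- TAMs, those with GABA had a log2 fold change of -0.23 (adjusted p 0.817). The annotation of the genome holds 2 copies of *Fabp5* at another place that match its transcript at 95% identity or more, *Gm14328* and *Gm6166*, and neither is in the count table.

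Perilipin 2 coats the lipid droplets of cells other than fat cells. *Plin2* (chromosome 4 from 86626910 to 86670217) overlaps a copy of itself, *Gm12551*, that is not in the count table. It had 18.5, 33.5 and 54.6 normalized molecules in WT libraries, 22.6, 34.7 and 41.5 in *muMt*-/- libraries and 9.29, 27.4 and 38.5 in those with GABA. The WT and *muMt*-/- ranges lay one inside the other, with a log2 fold change of -0.05 (adjusted p 0.964 by edgeR) that turned positive without WT replicates 4 (0.00) or 5 (0.16) and without *muMt*-/- replicates 1 (0.02) or 4 (0.02). With GABA the log2 fold change was -0.36 against *muMt*-/- mice (adjusted p 0.770), where 3 GABA-treated libraries lay below every *muMt*-/- library, and -0.21 without GABA-treated replicate 1.

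GPNMB is a membrane glycoprotein of lysosomes and phagosomes, and galectin-3, encoded by *Lgals3*, is a sugar-binding protein of the cytosol and of damaged vesicles; both transcripts are abundant in lipid-laden macrophages elsewhere. *Gpnmb* (chromosome 6 from 49036518 to 49058182) was near the limit of detection in these TAMs, with 25 molecules over 5 of 6 WT libraries, 6 over 3 of 6 *muMt*-/- libraries and 20 over all 6 GABA-treated libraries. Its highest normalized values were 7.67, 2.49 and 5.82 in these groups. The log2 fold changes of -1.37 between *muMt*-/- and WT (standard error 0.68, adjusted p 0.343) and 1.34 with GABA (standard error 0.70, adjusted p 0.624, both by edgeR) therefore rest on few molecules, and the groups overlapped. *Lgals3* (chromosome 14 from 47373860 to 47386167) had medians of 238, 229 and 223 normalized molecules, with ranges of 190 to 338, 156 to 287 and 118 to 351. These ranges overlapped in every comparison, with log2 fold changes of -0.18, 0.08 and -0.10 for *muMt*-/- against WT, GABA-treated against other *muMt*-/- and GABA-treated against WT (adjusted p of at least 0.724). Without GABA-treated replicate 1 the latter pair stood at 0.22 and 0.03.

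**Figure D2:**
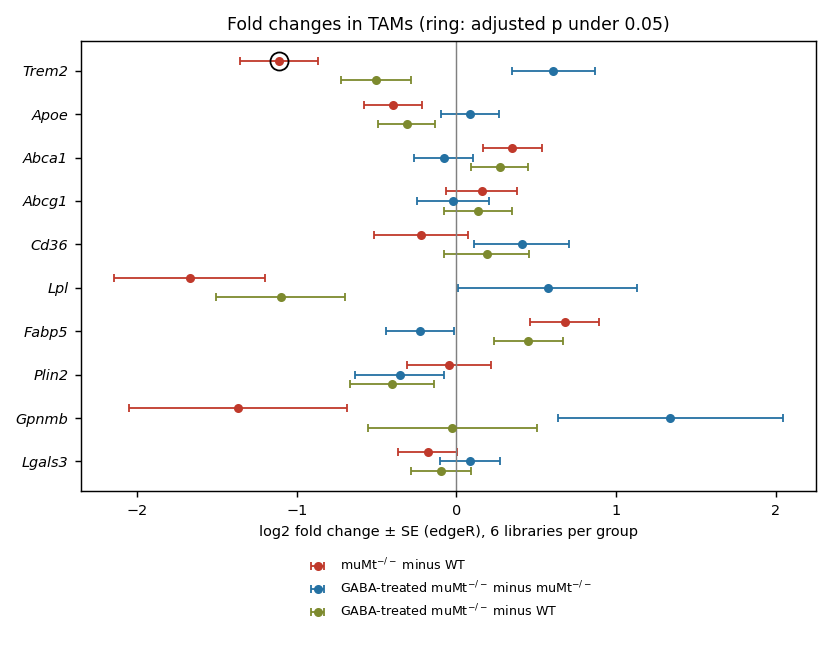
The log2 fold change (edgeR) of the 10 genes in the 3 TAM comparisons, with the standard error as a bar and 6 libraries in each group. The ring marks *Trem2* between *muMt*-/- and WT, the fold change that had an adjusted p under 0.05.

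Across the 10 genes, all of which could be tested in TAMs, edgeR called 1 lower and 0 higher between *muMt*-/- and WT. Of all 9469 genes tested, 1.02% were called lower, 1.02% higher and 2.05% in either direction (194 genes). DESeq2's Wald test called 2 of the 10, *Trem2* and *Fabp5*, and 2.98% of all genes. At an unadjusted p under 0.05, 1 of the 10 was higher and 3 were lower, beside 6.72% and 8.15% of all genes. The median log2 fold change of the 10 was -0.20, beside -0.05 over all genes tested. The 194 calls fell to 67 without *muMt*-/- replicate 4, to 87 without WT replicate 1 and to 125 without WT replicate 6. *Lpl* also passed without WT replicates 2 or 4 and *Fabp5* without *muMt*-/- replicate 6, which makes 2 of the 10 in each of these fits. The share of all genes in each of these fits is not given. Over the 12 fits without 1 library, between 67 and 231 of all genes were called.

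Between GABA-treated and other *muMt*-/- TAMs, edgeR and DESeq2 each called 0 of the 10, and edgeR called 0.0211% of all genes (2 of 9469). At an unadjusted p under 0.05, 1 of the 10 was higher (*Trem2*) and 0 were lower, beside 5.15% and 3.31% of all genes, and the median log2 fold change of the 10 was 0.09, beside 0.06 over all genes. The number of all genes called was 36 without GABA-treated replicate 1, 12 without *muMt*-/- replicate 5 and 5 without either *muMt*-/- replicate 2 or GABA-treated replicate 2. Between GABA-treated *muMt*-/- and WT TAMs, both tools again called 0 of the 10, and edgeR called 0.0739% of all genes (7 of 9469). Here 1 of the 10 was higher and 2 were lower at an unadjusted p under 0.05, beside 3.74% and 3.28% of all genes, with a median of -0.06 beside 0.02 over all genes. The 7 became 2 or 3 without any of WT replicates 1, 2, 3, 4 or 6 or of GABA-treated replicates 1, 2 or 3. The 3 comparisons share groups, so that their values are not independent of each other.

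Markers of other cells and of RNA quality moved in the comparison in which *Trem2* was called. Both genes of a list of nuclear RNAs rose in *muMt*-/- TAMs, *Malat1* by 0.82 and *Neat1* by 1.22 on the log2 scale (adjusted p 0.00385 and 8.6e-05). Their summed level, most of it *Malat1*, was 3596 ± 252 CPM in WT, 6263 ± 2086 in *muMt*-/- and 4028 ± 667 in GABA-treated *muMt*-/- TAMs (SD, n = 6 each), and the lowest *muMt*-/- library (4578) was above the highest WT library (3844). Of 5 monocyte markers, *Ccr2* (0.84, adjusted p 0.0106) and *Plac8* (0.90, adjusted p 0.0485) rose, 0 fell and none was at 0 in any TAM group. The summed level of the monocyte list, with *Ccr2* as its most abundant gene, ran from 1485 over 1645 to 1963 CPM in WT, from 1463 over 3205 to 3393 in *muMt*-/- and from 1801 over 2285 to 2479 in GABA-treated *muMt*-/- TAMs. Of the 12 macrophage markers, *Itgam* rose (0.66, adjusted p 0.0277), while *Lyz2* fell by 0.74, *C1qb* by 0.62 and *C1qc* by 0.57 (adjusted p 0.024, 0.0414 and 0.0483, all by edgeR). In the comparisons with GABA 0 markers of these lists were called. The part of these differences in that of *Trem2* was not tested.

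Markers of cells that carry much lipid or could carry these transcripts into the sort were also read in the TAM libraries. Of 6 adipocyte markers, all were at 0 in WT TAMs and 5 were at 0 in each of the *muMt*-/- groups, with *Retn* found in *muMt*-/- and *Cfd* in GABA-treated *muMt*-/- TAMs. Of 5 B cell markers, 4 were at 0 in WT, 4 in *muMt*-/- and 3 in GABA-treated *muMt*-/- TAMs, and *Cd79b* was the most abundant. The summed levels of endothelial markers had medians of 13.7, 27.9 and 23.9 CPM (means 50.0, 25.1 and 20.4, with 232 in 1 WT library, most abundant *Pecam1*), those of dendritic cell markers 6.38, 18.3 and 19.3, those of neutrophil markers 38.5, 111 and 77.5 and those of keratinocyte markers 3.77, 1.97 and 0 in the 3 TAM groups. Of 5 tumour epithelial markers, *Cdh1* rose in *muMt*-/- TAMs (1.11, adjusted p 0.0287 by edgeR), and the other 4 were at 0 there. Fibroblast markers, led by *Col3a1*, were found in all TAM groups, with medians of 397, 464 and 617 CPM and up to 5346 in 1 WT library, and 0 of them were called.

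Over the 18 TAM libraries with group means removed, the 8 members with a mean of at least 5 normalized molecules gave 28 pairs, of which 18 had a positive and 10 a negative Pearson's r, with a median of 0.113. These are descriptions over libraries that share depth and size factors. The highest r was that of *Trem2* with *Lgals3*, 0.706 (Spearman's rho 0.608), and it was 0.429 without GABA-treated replicate 1. *Lgals3* with *Plin2* had 0.678 (rho 0.552) and *Trem2* with *Plin2* 0.605 (rho 0.552), and without that library 0.529 and 0.372. The lowest r, -0.437, was that of *Trem2* with *Fabp5* (rho -0.486).

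The 3 genes whose pattern was most like that of each member were taken from the 5309 genes with a mean of at least 5 in TAMs, over the same 18 libraries. For *Trem2* they were *Galk2* (r 0.894), *Gapdh* (0.887) and *Gm12070* (0.884), and for *Apoe* they were *Selenop* (0.780), *Slc2a1* (0.777) and *Cebpa* (0.770). *Plin2* was nearest to *Axl* (0.929), *H2-K1* (0.895) and *Rab11b* (0.883), and *Lgals3* to *Furin* (0.921), *Pgk1* (0.915) and *Ftl1* (0.893). *Fabp5* was nearest to *Tiprl* (0.818), *Fads1* (0.794) and *Ptgfrn* (0.790). The nearest of *Abca1* was *Wbp2* (0.860), before *Gng12* (0.734) and *Anapc4* (0.724), that of *Abcg1* was *Tdg* (0.778), before *Cops5* (0.739) and *Tbc1d14* (0.730), and that of *Cd36* was *9130401M01Rik* (0.717), before *Bri3bp* (0.716) and *Gtf2f2* (0.711). Without GABA-treated replicate 1, the r of the 3 genes was 0.857, 0.659 and 0.633 for *Trem2* and 0.735, 0.651 and 0.614 for *Apoe*. It was between 0.818 and 0.903 for those of *Plin2* and *Lgals3*, and between 0.712 and 0.847 for those of the other 4 members. With 5309 genes to choose from over 18 libraries, high values of r are to be found for any gene.

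Other genes of lipid handling were taken from 7 lists with 88 names, of which 87 were in the count table and 68 could be tested in TAMs. Between *muMt*-/- and WT, edgeR called 0 of the 68 higher and 1 lower (2.05% of all genes in either direction), and at an unadjusted p under 0.05 it put 8 higher and 5 lower (6.72% and 8.15% of all genes), with a median log2 fold change of 0.05, beside -0.05 over all genes. With GABA it called 0 of the 68 against either group. At an unadjusted p under 0.05, 5 were higher and 3 lower against *muMt*-/- mice (5.15% and 3.31% of all genes), and 4 higher and 3 lower against WT (3.74% and 3.28% of all genes). DESeq2's Wald test called 3, 2 and 0 of the 68 in these comparisons, and 2.98%, 0.655% and 0.137% of all genes.

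The gene called was *Lgals1*, a relative of *Lgals3* from the list of genes of lipid-associated macrophages, which encodes galectin-1. *Lgals1* had 245 normalized molecules in the lowest WT library, 274 at the median and 319 in the highest, against 114, 156 and 217 in *muMt*-/- and 146, 231 and 315 in GABA-treated *muMt*-/- TAMs. All *muMt*-/- libraries lay below every WT library, as for 1.33% of all genes. *Lgals1* fell by 0.85 on the log2 scale (standard error 0.17, adjusted p 0.00351 by edgeR), and lost the call in 1 of 19 alternatives, the fit with depth as a covariate (range of the adjusted p 4.15e-05 to 0.282). With GABA it had a log2 fold change of 0.62 against *muMt*-/- mice (adjusted p 0.195), and it was called in 3 of 19 alternatives, without GABA-treated replicate 1, by DESeq2's Wald test and without the filter on low counts (range over the alternatives 0.0206 to 0.503).

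By list, and among genes with a mean of at least 5, the most positive and most negative log2 fold changes between *muMt*-/- and WT TAMs were as follows, and none but that of *Lgals1* passed. In the list of uptake receptors they were those of *Mertk*, a receptor for dying cells (0.90, adjusted p 0.0536), and of its relative *Axl* (-0.57, adjusted p 0.154, called in the fit to the 12 libraries alone). *Mertk* had 2.56 to 15.7 normalized molecules in WT and 13.3 to 25.1 in *muMt*-/- TAMs, and passed in 6 of 19 alternatives, with the size factors of DESeq2, by its Wald test, without the filter, with that of edgeR and in the fits without WT replicate 5 or *muMt*-/- replicate 5 (range of the adjusted p 0.0146 to 0.238). In the list of efflux and LXR genes they were those of *Abca7*, another lipid pump (0.34), and of *Srebf1*, a regulator of fatty acid synthesis (-1.07, adjusted p 0.155). Among storage genes they were those of *Hilpda*, which inhibits a droplet lipase (0.86, adjusted p 0.115), and of *Acsl1*, which activates fatty acids (-0.50). *Hilpda* passed without WT replicate 5. *Soat1*, which esterifies cholesterol, had 0.63 (adjusted p 0.0652) and passed in 4 of 19 alternatives, by DESeq2's Wald test, with edgeR's own filter, in a fit to the 12 libraries and without WT replicate 6 (ranges over the alternatives 0.00856 to 0.229 and 0.0218 to 0.420). The list of TREM2 signalling had *Syk*, the kinase recruited by DAP12 (0.64, adjusted p 0.0938, called with edgeR's own filter alone), and *Tyrobp*, which encodes DAP12 itself (-0.33, adjusted p 0.409). Fatty acid binding and oxidation had *Slc25a20* (0.69) and *Acadl* (-0.29), lipid hydrolysis *Lipa* (0.14) and *Npc2* (-0.25), and lipid-associated macrophage genes *Creg1* (0.34) beside *Lgals1*.

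With GABA the extremes of the same lists were as follows, and 0 passed by edgeR with all libraries and the filter on low counts. Against *muMt*-/- mice, *Syk* had -0.76 (adjusted p 0.209), with 9.29 to 19.1 normalized molecules in GABA-treated and 18.8 to 37.7 in other *muMt*-/- TAMs. *Srebf1* had 0.92 (adjusted p 0.560), *Hilpda* -0.69 (adjusted p 0.517) and *Msr1*, a scavenger receptor, -0.45 (adjusted p 0.285). *Msr1* had 120.6 to 156 normalized molecules in *muMt*-/- and 79.3 to 109.9 in GABA-treated *muMt*-/- TAMs, which did not overlap (0.591% of all genes in either direction), and was called by DESeq2's Wald test (range over the alternatives 0.0182 to 0.465). The other extremes against *muMt*-/- mice were *Scarb1* (0.26), *Abca7* (-0.63), *Gpat4* (0.63), *Lipa* (0.15), *Npc2* (-0.13), *Acadl* (0.16), *Hadhb* (-0.48), *Plcg2* (0.25) and *Spp1* (-0.23). Against WT they were *Mertk* (0.56), *Axl* (-0.34), *Arl4c* (0.44), *Abca7* (-0.28), *Soat1* (0.36), *Acsl1* (-0.89), *Lipa* (0.29), *Npc2* (-0.38), *Slc25a20* (0.41), *Hadha* (-0.17), *Plcg2* (0.13), *Tyrobp* (-0.26), *Csf1* (0.40) and *Spp1* (-0.60).

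Relatives that share a name stem with a member were looked up in TAMs. *Trem1*, a receptor next to *Trem2* that amplifies inflammation, had 156, 121 and 125 molecules over the WT, *muMt*-/- and GABA-treated *muMt*-/- libraries, where *Trem2* had 278, 83 and 162. *Plin3* had 90, 60 and 54 molecules, where *Plin2* had 273, 170 and 166, and *Plin5* had 0 in all 3. The fatty acid binding protein of fat cells and macrophages, *Fabp4*, had 3, 6 and 2 molecules, where *Fabp5* had 227, 241 and 252. *Lgals9* had 246, 129 and 211 and *Lgals8* 98, 81 and 93, where *Lgals3* had 1968, 1131 and 1539, and *Abcg3* had 37, 16 and 27, where *Abcg1* had 191, 139 and 172. These are counts before scaling, and the libraries of the groups differ in depth.

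The same genes were then compared between the cell types, as CPM. In WT mice, 9 of the 10 could be tested in a fit to all 36 libraries, and edgeR called 8 of them higher in TAMs, beside 16.8% of all 8477 genes tested (1420 called higher). Of the 8, *Cd36* and *Lpl* had so few molecules in CD8 libraries that they passed the filter through their TAM libraries, which leaves them 1 direction. Both were left out by edgeR's own filter. With that filter 6 members were called, a count given without the share of all genes in that fit. *Cd36* and *Lpl* were both called by edgeR without a filter (adjusted p 1.76e-07 and 0.00253), but dropping it leaves them the same 1 direction. The share of all genes called without a filter is not given either. Between TAMs and CD8 T cells, all genes had a median log2 fold change of 0.36 with TMM and 0.20 with DESeq2's size factors, which is a shift that the log2 fold changes carry, while shares and ratios are of CPM without these factors. *Apoe* had 3586 molecules over the WT TAM libraries and 7 over the WT CD8 libraries, where it stood at 1.09% of the TAM level (log2 fold change 6.82, adjusted p 3.06e-15). *Lgals3* had 1968 and 59 molecules (16.7%, log2 fold change 2.87, adjusted p 6.23e-11), *Abcg1* 191 and 5 (14.6%, 3.01, adjusted p 2.28e-06) and *Plin2* 273 and 9 (18.4%, 2.72, adjusted p 0.000157). Of the 9 molecules of *Plin2*, 7 came from CD8 WT replicate 6, and without it the share was 5.78% and the log2 fold change 4.32. For each of these 4 genes, and for *Trem2*, *Cd36* and *Abca1*, all 6 WT TAM libraries were above every WT CD8 library (9.83% of all genes tested), for *Lpl* and *Gpnmb* it was 5 and for *Fabp5* 3 of 6.

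Where CD8 libraries had almost no molecules, a ratio with its counting interval stands in for the fold change. *Trem2* had 2 molecules in the WT CD8 libraries, both from replicate 5, and its CPM was 24.9 times as high in TAMs (95% interval 6.82 to 206). *Abca1* had 3 molecules, 2 of them from replicate 2, and a ratio of 15.4 (5.21 to 75.1), and *Lpl* had 1 and a ratio of 10.02 (1.73 to 403). *Cd36* was at 0 in all WT CD8 libraries and at least 5.55-fold higher in TAMs, both bounds here being against a floor of 3 molecules over the group. *Gpnmb*, also at 0 there and not tested with the filter on low counts, was at least 1.49-fold higher. Without that filter, edgeR called *Gpnmb* higher in TAMs (adjusted p 0.0220), the 1 direction that its absence from the WT CD8 libraries leaves. This call is given without the share of all genes called in the unfiltered fit. The exception was *Fabp5*, with 227 and 24 molecules, whose CD8 level was 59.1% of that in TAMs (41.7% without CD8 WT replicate 6). Its log2 fold change of 1.13 had an adjusted p of 0.0829 by edgeR, and passed without CD8 WT replicate 6 (1.65, adjusted p 0.0328), without the filter on low counts (0.00337) and in a fit to the 12 libraries (0.0193), with a range over the alternatives of 0.00337 to 0.219.

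The CD8 level as a share of the TAM level was then taken in mice without B cells, with the range without each CD8 library in turn, an alternative chosen after the data were seen. For *Apoe*, at 1.09% in WT (range 0.582% to 1.37%), it was 5.29% in *muMt*-/- (4.30% to 6.54%) and 7.83% with GABA (3.33% to 9.36%). Of the 79 molecules of *Apoe* with GABA, 52 came from replicate 3, and without it the share was 3.33%, below that without GABA. *Lgals3* had 41.1% in *muMt*-/- (34.1% to 45.2%) and 29.7% with GABA (26.8% to 31.9%), and *Plin2* had 33.1% (24.3% to 39.4%) and 34.3% (22.2% to 40.2%). *Trem2* had 26.5% and 13.7%, but its 9 molecules in CD8 *muMt*-/- libraries all came from replicate 1, so that the former share was 0 without it, and the latter was 7.05% without GABA-treated replicate 2. *Abca1*, at 6.50% in WT (2.37% to 8.16%), had 12.6% in *muMt*-/- (5.45% without replicate 1) and 17.7% with GABA (13.5% to 21.8%). *Abcg1* had 14.6% in WT, 14.1% in *muMt*-/- and 33.1% with GABA (30.3% to 35.7%). *Fabp5* had 62.9% and 54.0% of its TAM level in the groups without B cells, and the latter was 34.2% without GABA-treated replicate 3. *Lpl* had 3 and 5 molecules in these CD8 groups (66.7% and 58.9%), *Cd36* 3 and 6 (14.1% and 17.3%) and *Gpnmb* 5 and 0. The shares of *Cd36* were 5.58% without CD8 *muMt*-/- replicate 1 and 10.7% without CD8 GABA-treated *muMt*-/- replicate 3. The share of *Gpnmb* in *muMt*-/- mice, 204%, rests on 6 molecules in TAMs and was 50.5% without CD8 replicate 3. The 12 macrophage markers summed to 2.57% of their TAM level in CD8 libraries of WT (1.26% to 3.23%), 14.5% in *muMt*-/- (8.54% to 16.6%) and 13.4% in GABA-treated *muMt*-/- mice (9.74% to 15.9%), where the lowest of these values were those without WT replicate 5, *muMt*-/- replicate 1 and GABA-treated replicate 1. The shares themselves were not tested between the groups. For 9 members, the interactions given below test whether the change between groups differs between TAMs and CD8 T cells. With the filter on low counts, edgeR called 0 of the 9 in either interaction.

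**Figure D3:**
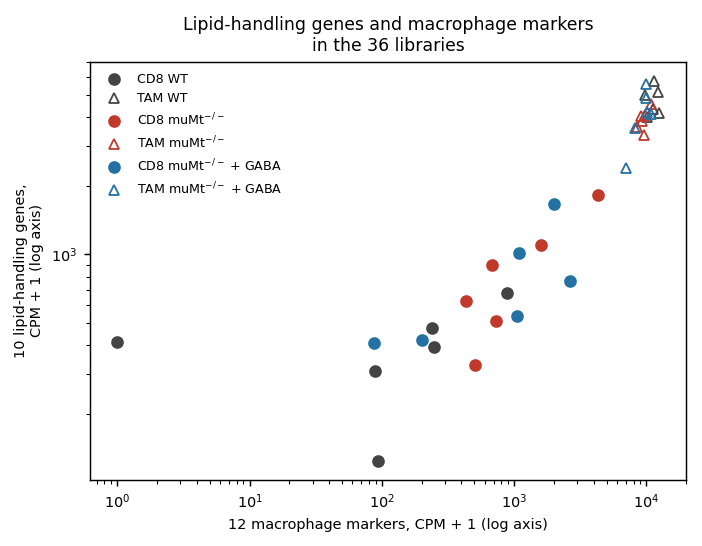
CPM (counts per 1000000 molecules) of the 10 genes together against that of 12 macrophage markers, both plus 1 on log axes, with 1 point per library for CD8 T cells (filled circles) and TAMs (open triangles) in 3 groups of 6. The CD8 library with the highest macrophage markers, *muMt*-/- replicate 1 (4329 CPM), also had the highest level of the 10 genes (1826 CPM). The library second on these markers, GABA-treated *muMt*-/- replicate 1 (2653 CPM), had 765 CPM for the 10 genes.

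Over the 18 CD8 libraries, the summed level of the 10 genes followed that of the macrophage markers, with a Pearson's r of log2 values of 0.616 and a Spearman's rho of 0.841. The r was 0.542 over the 16 libraries left without the 2 farthest from the median marker level, and within groups it was 0.441 (rho 0.657). Both sums come from the same library and share its depth, and this relation was chosen after the data were seen. Much of the sum was *Lgals3*, with mean CPM of 230 in WT, 475 in *muMt*-/- and 380 in GABA-treated *muMt*-/- mice. The means of the whole sum were 397, 880 and 800. Without *Apoe* and *Lgals3* they were 145, 310 and 272, and the relation was not computed for that sum. The part of RNA from macrophages in the CD8 values was not tested.

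In CD8 T cells, 7 of the 10 genes could be tested, and edgeR and DESeq2 each called 0 of the 7 in each of the 3 comparisons, where edgeR called 0% of all 6663 genes in every one of them. Over all genes the median with TMM was 0.15 for *muMt*-/- against WT and 0.21 for GABA-treated mice against WT, where DESeq2's size factors gave 0.06 in both. At an unadjusted p under 0.05, 2 of the 7 were higher and 0 lower between *muMt*-/- and WT (5.37% and 0.795% of all genes), 1 higher and 0 lower with GABA against *muMt*-/- mice (2.01% and 1.70%), and 2 higher and 0 lower with GABA against WT (5.99% and 0.900%). *Lgals3* had 3.67, 14.5 and 19.9 normalized molecules in the lowest, median and highest WT library, 15.6, 20.6 and 57.6 in *muMt*-/- and 14.1, 19.2 and 34.7 in GABA-treated *muMt*-/- libraries. All 6 *muMt*-/- libraries were above the WT median of *Lgals3*, with 3 above every WT library. Its log2 fold change of 1.18 between *muMt*-/- and WT (standard error 0.34, adjusted p 0.336) was 0.90 without *muMt*-/- replicate 1, and it was called without the filter on low counts (range of the adjusted p over the alternatives 0.00977 to 0.9997).

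*Apoe* had a median of 0.751 normalized molecules in CD8 libraries of WT mice (highest 4.57), 4.85 in *muMt*-/- (highest 12.1) and 4.83 in GABA-treated *muMt*-/- mice (highest 32.2, in replicate 3). The groups overlapped, with 6 of 6 GABA-treated libraries above the WT median. Between GABA-treated *muMt*-/- and WT mice its log2 fold change was 2.60 (standard error 0.78, adjusted p 0.458 by edgeR) and 1.41 without GABA-treated replicate 3, and it was called without the filter on low counts (range of the adjusted p 0.000146 to 0.999). Between *muMt*-/- and WT it was 1.87 (adjusted p 0.735) and 1.57 without *muMt*-/- replicate 1. *Fabp5* had medians of 3.24, 8.42 and 3.39 normalized molecules in these CD8 groups, and *Plin2* of 0.516, 2.65 and 2.32, with ranges that overlapped. *Abcg1*, with medians of 2.02, 1.17 and 2.93, was the gene at an unadjusted p under 0.05 with GABA (log2 fold change 1.23, adjusted p 0.999 by edgeR), where 4 of 6 GABA-treated libraries were above every *muMt*-/- library. *Trem2* was detected in 1, 1 and 4 CD8 libraries of the 3 groups and *Abca1* in 2, 3 and 4.

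The difference between the responses of the cell types was tested as an interaction over all 36 libraries. For *muMt*-/- against WT, edgeR called 0 of the 9 members tested, beside 0.0118% of all genes (1 of 8477), and none higher but 3 lower in TAMs had an unadjusted p under 0.05, beside 1.75% and 8.32% of all genes. These 3 were *Lgals3* (-1.39, adjusted p 0.217), *Apoe* (-2.32, adjusted p 0.337) and *Trem2* (-2.67, adjusted p 0.457), the latter with 2 molecules in WT CD8 libraries. Without CD8 *muMt*-/- replicate 1, which holds all *Trem2* molecules of its group, *Trem2* turned to 1.89 (adjusted p 0.751), while *Lgals3* (-1.09) and *Apoe* kept their sign. Without any 1 library, a set of alternatives added after the data were seen, 0 members were called in either interaction. The median of all genes in this contrast was -0.30 with TMM and -0.11 with DESeq2's size factors, and without the filter on low counts *Apoe* and *Lgals3* were called (ranges of the adjusted p 0.00644 to 0.507 and 0.00644 to 0.387). For GABA-treated against other *muMt*-/- mice, edgeR called 0 of 9 members and 0% of all genes, with 1 member (*Abcg1*, -1.30) at an unadjusted p under 0.05, beside 4.53% of all genes. DESeq2 was not run for these contrasts. The fall of *Trem2* in TAMs is thus not shown to differ from its response in CD8 T cells, where it was near the limit of detection.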

How the data were processed

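Digital RNA sequencing was analysed for 36 libraries, and 0 columns were left without a sample. The authors aligned reads to mm10 by STAR, used refFlat gene models and deposited counts of distinct molecules per gene and library, with no scaling found in the values. Library totals and normalized molecules set the precision given with each value, and intervals and floors cover counting error only. Coordinates come from the annotation of the same build (GRCm38.p6). Genes with a mean above 1 normalized molecule (DESeq2 1.42.0 size factors) were tested with edgeR 4.0.16 in R 4.3.3 (TMM, 1 coefficient per group, quasi-likelihood F-test, Benjamini-Hochberg adjustment over all genes, threshold 0.05), in 1 fit per cell type and 1 fit to all 36 libraries for comparisons between cell types. Summaries were made in Python 3.11.15 (matplotlib 3.10.9, scipy 1.17.1, pandas 2.3.3, numpy 2.4.6).

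The members, the 7 lists of lipid genes and the marker lists were chosen with earlier results of these data known. Genes named are the members; every list gene called in TAMs and, per list and TAM comparison, the most positive and most negative log2 fold change among genes with a mean of at least 5 normalized molecules; the 3 nearest genes of each member above that mean by Pearson's r of log2 values (plus 1) with group means removed; marker genes; and relatives sharing a name stem. *Soat1* against WT and the abundance of single relatives were picked after their values were seen. Alternatives were edgeR with the size factors of DESeq2, the Wald test of DESeq2, no filter, filterByExpr, a fit to only the 12 libraries compared, a replicate block and leaving out each library in turn. A covariate for depth (log2 molecules per library) was added after the data were seen, as were the interactions and CD8 shares without each library and the nearest genes without 1 library.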

Additional observations from a re-analysis of the deposited data

Results flagged for a closer look

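In 10 of 57 groups of 6 libraries with any molecule of a member, 1 library lay so far above the other 5 that its gap to the nearest, divided by the whole range of the group, was above the 95% critical value of Dixon's ratio for 6 values. Chance gives this in about 1 in 20 groups, and more often where most libraries are at or near 0. In TAMs it was *Apoe* in *muMt*-/- replicate 1, with 531 normalized molecules where the next library had 345. In CD8 T cells *Apoe* stood at 32.2 in GABA-treated *muMt*-/- replicate 3, where the next had 7.63. *Trem2* was found in CD8 WT replicate 5 alone of its group (2.29 normalized molecules, from 2 molecules) and in CD8 *muMt*-/- replicate 1 alone (9.10, from 9 molecules), and it was highest in CD8 GABA-treated *muMt*-/- replicate 2 (4.57, next 1.24). *Lpl* was found in CD8 WT replicate 5 alone (1.14, from 1 molecule). *Abca1* was highest in CD8 WT replicate 2 (4.81, from 2 molecules, next 0.751) and in CD8 *muMt*-/- replicate 1 (7.08, next 2.45). *Gpnmb* was highest in CD8 *muMt*-/- replicate 3 (3.05, from 4 molecules) and *Plin2* in CD8 WT replicate 6 (5.26, next 1.14).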

How the results depend on the processing

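Of the log2 fold changes of single members in TAMs and between TAMs and CD8 T cells of WT mice, 443 of 468 from fits without 1 library and 242 of 256 from other alternatives kept their direction and their side of the threshold. Between *muMt*-/- and WT TAMs, the number of members called (1) was 2 by DESeq2's Wald test, 3 without a filter, 2 with filterByExpr, 2 in a fit to 12 libraries, 0 with the depth covariate and 1 to 2 without 1 library. The number of list genes called (1) was 2 with DESeq2's size factors, 3 by the Wald test, 2 without a filter, 4 with filterByExpr, 3 in a fit to 12 libraries, 0 with the covariate and 1 to 3 without 1 library. The number of all genes called (194) was 343 without a filter, 295 with filterByExpr, 323 in a fit to 12 libraries, 11 with the covariate and 67 to 231 without 1 library. The Wald test called 2.98% of all genes. For the other alternatives no share is given, since the number of genes tested changes with the filter and the libraries. Their counts of members and list genes thus cannot be set against such a share. With GABA against *muMt*-/- TAMs, list genes called (0) were 2 by the Wald test, 1 without a filter and 0 to 1 without 1 library, and all genes called (2) were 62, 51, 4 with the replicate block, 5 with the covariate and 2 to 36 without 1 library. With GABA against WT TAMs, all genes called (7) were 13 by the Wald test, 63 without a filter, 2 with filterByExpr, 4 in a fit to 12 libraries and 2 to 9 without 1 library. Without a filter, 1 member was called in CD8 T cells between *muMt*-/- and WT, 1 between GABA-treated *muMt*-/- and WT and 2 in the interaction of *muMt*-/- against WT. These 3 counts are given without the share of all genes called in the same unfiltered fits, so they cannot be set against it. Without 1 library, 0 members were called in either interaction. With the replicate block, 1 member was called in *muMt*-/- against WT TAMs and 0 with GABA. In that fit *Gpnmb* with GABA against WT turned to 0.042. Whether the replicate numbers pair the mice was not settled. Of 6 libraries of the same number, 0 to 3 had a correlation above 0.1. Between TAM and CD8 libraries of the same number, the mean correlation was 0.035 in WT, 0.051 in *muMt*-/- and 0.119 in GABA-treated *muMt*-/- mice. For other numbers it was -0.007, -0.009 and -0.021. Within a cell type, the mean for the same number ran from -0.067 to 0.123. The covariate turned *Lgals3* to 0.18 and *Plin2* to 0.44 (*muMt*-/- against WT), *Lgals3* to -0.13 (GABA against *muMt*-/-), and *Gpnmb* to 0.14 and *Lgals3* to 0.050 (GABA against WT). Without 1 library, directions turned within -0.16 to 0.16 for *Plin2* (*muMt*-/- against WT), -0.018 to 0.21 for *Apoe*, -0.12 to 0.075 for *Abcg1* and -0.082 to 0.22 for *Lgals3* (GABA against *muMt*-/-), and -0.11 to 0.32 for *Cd36*, -0.34 to 0.36 for *Gpnmb* and -0.27 to 0.030 for *Lgals3* (GABA against WT). In CD8 T cells they turned within -0.32 to 0.47 for *Abcg1* (*muMt*-/- against WT), -0.45 to 1.04 for *Apoe*, -0.53 to 0.041 for *Trem2*, -0.44 to 0.0018 for *Lgals3* and -0.83 to 0.19 for *Plin2* (GABA against *muMt*-/-) and -0.23 to 0.86 for *Fabp5* (GABA against WT), and in the interactions for 4 (*muMt*-/- against WT) and 6 (GABA) of 9 members. The cause was not tested in any of these, except that fits to fewer libraries or genes differ by construction. Depth limits *Lpl* and *Gpnmb* in TAMs, which had as few as 11 and 6 molecules in a group, and most members in CD8 T cells.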
